A study of Mus musculus with 6 samples.

Results

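Integrin and laminin chains were examined in the ventricles of infarcted mouse hearts. Members were the protein-coding rows of the deposited gene table whose names begin with Itga, are Itgb1 to Itgb8, or are laminin alpha, beta or gamma chains (Lama, Lamb or Lamc with a digit), with a mean of at least 1 normalized count over the 6 hearts. The rule gave 37 genes of the 26012 rows: 18 integrin alpha chains, 8 integrin beta chains and 11 laminin chains. Integrins were separated into 8 chains of leukocytes (Itgal, Itgam, Itgax, Itgad, Itgae, Itga4, Itgb2, Itgb7), 2 chains of platelets (Itga2b, Itgb3) and 16 chains of stromal and parenchymal cells, named stromal here. Of the rows with matching names, 1 was left out by the minimum, a second row named Itgam (ENSMUSG00000108596) that held 0 in 4 hearts.

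The libraries came from 8-week-old male C57BL/6 mice in which myocardial infarction (MI) was produced by tying off the LAD, the coronary artery that supplies the front of the left ventricle. All 6 hearts had this surgery and an injection into the heart muscle of 10 μg of mimic, which was miR-19a/19b mimic in 3 hearts and control mimic in 3 hearts. A mimic is a synthetic RNA duplex that the cell uses as the mature miRNA. Ventricular polyadenylated RNA was sequenced 4 days after MI, and no heart without MI or without injection was analysed here, so the values say nothing of what MI or the injection alone does to these genes. The question was which transcripts differ when miR-19a/19b is raised in the injured heart.

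Integrins are receptors of an alpha and a beta chain that tie a cell to the matrix or to another cell and signal in both directions across the membrane. Laminins are trimers of an alpha, a beta and a gamma chain, they build the basement membrane around cardiomyocytes, capillaries and nerves, and they are themselves ligands of integrins. After MI, leukocyte integrins carry cells out of the blood into the infarct, platelet integrins hold clots together, and stromal integrins attach cardiomyocytes, fibroblasts and vessels to the matrix.

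The injected miRNAs and the members' sites for them are shown first, since the seed of a miRNA (bases 2 to 8) is what pairs with a target and the members were chosen without it. In the mature sequences from RefSeq (GRCm38.p6) the seed is in capitals and is the same in both miRNAs. The gene of miR-19a lies on chromosome 14, and miR-19b has copies on chromosomes 14 and X.
miR-19a-3p: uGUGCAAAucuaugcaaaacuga
miR-19b-3p: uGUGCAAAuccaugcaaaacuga
The longest annotated 3′ UTR of each gene (GENCODE M21, GRCm38) was searched on the sense strand for the 8-mer TTTGCACA and for the 7-mers it contains, TTTGCAC and TTGCACA, with a 7-mer inside an 8-mer not counted again. The 8-mer was found in 4 of the 37 members (10.8%), against 878 of the 15803 tested genes with a 3′ UTR (5.56%). Any of these matches was found in 8 members (21.6%), against 18.4% of all. Each line gives the 30 bases around an 8-mer, which is in capitals, 5′ to 3′ on the strand of the gene.
Itga1, chr13:114958196-114958225, minus strand: aggcattgaacTTTGCACAtggagctataa
Itgav, chr2:83803737-83803766, plus strand: ccatcagtaagTTTGCACAggcacttagaa
Itgb8, chr12:119158584-119158613, minus strand: ataagtaccaaTTTGCACAttataatatag
Lamc3, chr2:31945614-31945643, plus strand: acaccccagtaTTTGCACAtatgtgtatgt
A match describes the letters of these windows and does not show that the miRNA binds there. The other members with a match held 7-mers, and they were Itga2, Itga3, Itga6 and Itga8. Itgal and the other leukocyte and platelet integrins held none in the windows searched.

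Gene reads numbered 19398196 in the shallowest library and 23645308 in the deepest. The ventricular label was checked by cardiomyocyte markers: 10 of them (Myh6, Tnnt2 and others) summed to 535895 to 687289 normalized counts in control mimic hearts. Their sums in the miR-19a/19b mimic group were 944885, 841500 and 325927 for replicates 1, 2 and 3, so that replicate 3 was below and the other replicates above every control mimic heart. Leukocyte markers (10 genes) summed to 28219 to 36413 in control mimic hearts and to 22549, 25598 and 35782 in these replicates. Counts of miR-19a/19b mimic replicate 3 differed from those of its group by a chi-square per degree of freedom of 123 and 110, against 24.4 or less in the other pairs of replicates. Results that rest on this heart are therefore given with and without it. Skeletal muscle markers had a sum of 3424 in replicate 1 of the miR-19a/19b mimic group, where the sum was 36.1 to 76.1 for the other 5 hearts. Sums of endothelial (29965 to 37392.5 and 32275 to 34007), fibroblast (504824 to 619278 and 438695 to 700993), smooth muscle and pericyte (118114 to 144442 and 87449 to 140952), Schwann cell (1433 to 1546 and 1303 to 1474) and epicardial markers (451 to 1210.2 and 966 to 1443) overlapped between control mimic and miR-19a/19b mimic hearts. In bulk tissue, fewer cells of a type and less RNA per cell cannot be told apart.

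Levels between genes were compared as normalized counts per kilobase of the gene length in the deposited table. Itgb1, the beta chain shared by most matrix receptors, had the highest level, 6341 ± 335 (SD, n = 3) per kilobase in control mimic and 5541 ± 248 in miR-19a/19b mimic hearts. The next stromal integrins were Itgb5 and Itga5, whose ranges over the 6 hearts overlapped, and then Itga7, the alpha chain of the laminin receptor of muscle, at 943 to 1703 per kilobase. Itga6, Itga9, Itgav and Itga1 followed between 172 and 399 per kilobase, each overlapping with the next. Of the stromal chains, Itga10, Itga2, Itgb8, Itga8 and Itgb6 were lowest, with no value above 18.99 per kilobase, and their ranges overlapped from each to the next.

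Among leukocyte integrins Itgb2, the beta chain common to leukocytes, led with 829 to 1418 per kilobase over the 6 hearts. Itgam, its alpha partner on monocytes, macrophages and neutrophils, followed at 167 to 314, Itgb7 and Itgax overlapped with each other, and Itgal overlapped with Itga4 at 22.6 to 48.8. Itgae was below these at 5.17 to 11.3, and Itgad, at 0.216 to 2.06 per kilobase, rested on few reads. Of the laminins, Lamc1 and Lamb2 were highest and their ranges overlapped, at 1369 to 1866 and 1151 to 1769 per kilobase. Lamb1 came next, then Lama5 and Lama4 (339.6 to 569 and 361 to 437), then Lama2, the alpha chain of the muscle basement membrane, at 126 to 208. Lamb3, Lama3, Lama1 and Lamc3 were at 27.5 per kilobase or less.

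**Figure D1:**
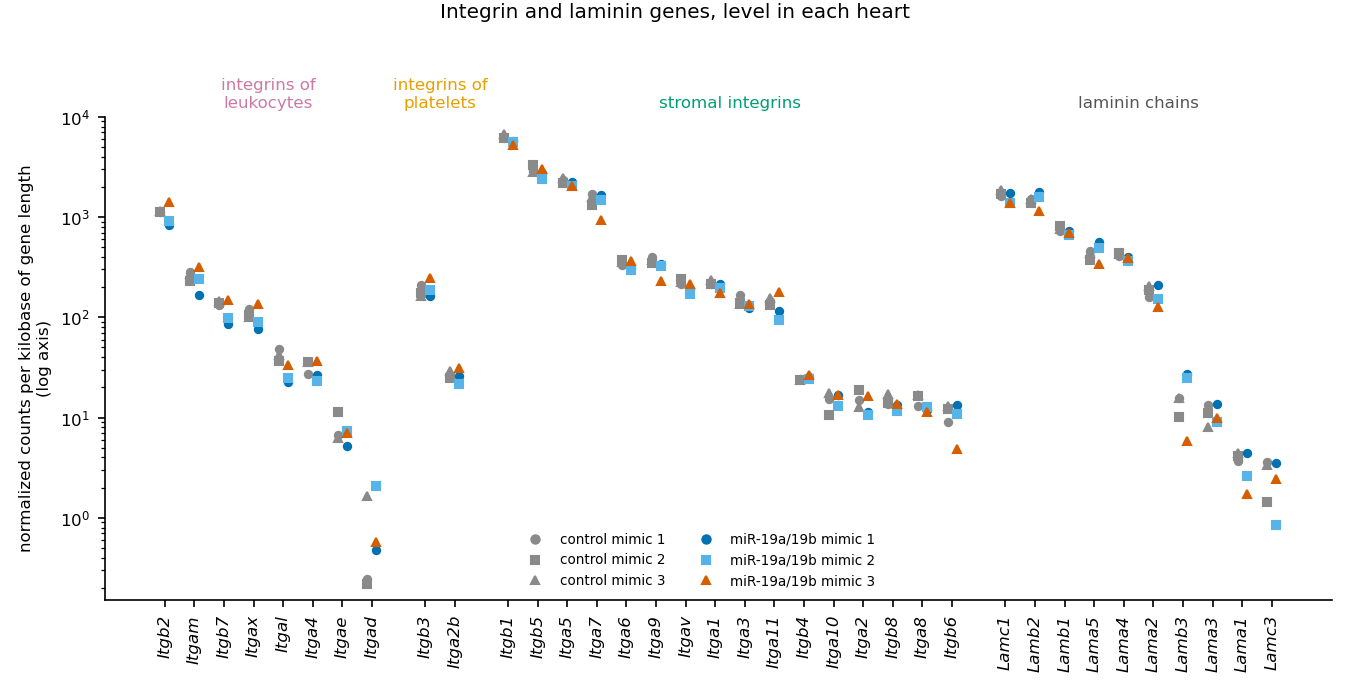
Normalized counts per kilobase of gene length (log axis) of the integrin and laminin genes, ordered by level within each group of genes. Each point is 1 heart, grey for control mimic and coloured for miR-19a/19b mimic hearts. Itgb1, Itgb5 and Itga5 are the highest integrins, and Lamc1 and Lamb2 the highest laminins, in both groups.

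Some levels carry limits of the annotation. Exon bases were shared with another annotated gene in 12 members, in 8 of them on the other strand only, and it is not stated that reads were counted by strand. Itgam shares 3450 exon bases with Gm49368 on its own strand and Itga10 shares 1739 with Gm42957, so their levels are uncertain. Few reads were counted for Gm42957 (0 to 3.09 normalized counts per heart) or for the second row named Itgam (0 to 3.46). It is not stated how reads that fit both genes were counted. The length in the deposited table differed from GENCODE M21 for 7 members, most for Itga1 (5984 against 18599 bases) and Itga7 (4013 against 8092), so the places of these genes in the order depend on the annotation.

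Between the groups, most members had slightly lower means in miR-19a/19b mimic hearts, and none passed the test after correction. The log2 difference was below 0 in 29 of the 37 members, against 49.2% of the 21126 genes tested, and the median difference was -0.18 (log2, miR-19a/19b mimic minus control mimic) against 0.0041 over all genes tested. With limma on log2(normalized count + 1) and Benjamini-Hochberg adjustment over all genes tested, 0 members had an adjusted p under 0.05, as had 0% of all genes. The adjusted p was 0.947 for Itgal and 1 after rounding for every other member, and it is printed for the other members only where a heart was left out. At an unadjusted p under 0.05, 1 member was lower (Itgal), against 2.63% of all genes, and 0 were higher, against 1.39%. Counts recovered from the values gave the same result in edgeR and DESeq2, with 0 members after adjustment and Itgal alone at an unadjusted p under 0.05. In 7 members every miR-19a/19b mimic heart lay below every control mimic heart (5.3% of all genes did so), and in 0 members every one lay above (3.9% of all genes). These 7 were Itgal, Itga3, Itga8, Itga9, Itgb1, Itgb8 and Lama4.

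Without miR-19a/19b mimic replicate 3 these counts were larger. At an unadjusted p under 0.05 in limma, 9 members were lower, where 6.12% of all genes were, and 2 were higher, where 8.41% of all genes were. The lower members were 6 leukocyte integrins (Itgal, Itgb7, Itgb2, Itgam, Itgax, Itga4) and 3 stromal integrins (Itgav, Itga6, Itga11), and the higher were the laminins Lamb3 and Lama5. At an adjusted p under 0.05, 3 members (Itgal, Itgb7 and Lamb3) passed, where 2.44% of all genes passed.

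**Figure D2:**
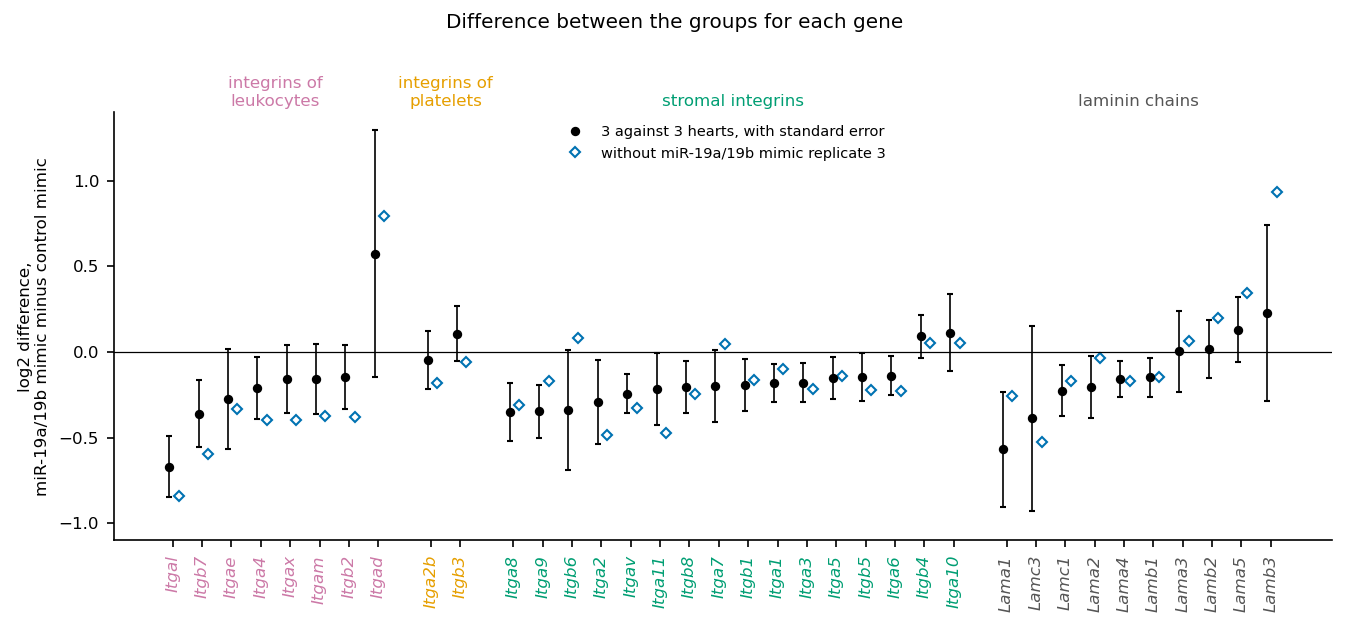
Log2 difference between the groups (miR-19a/19b mimic minus control mimic) for each gene by limma, with its standard error over 3 against 3 hearts (black), and the difference without miR-19a/19b mimic replicate 3 (open diamonds). Most black points lie below 0, and the diamonds of leukocyte integrins lie lower than the black points in 7 of 8 genes.

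Integrins of leukocytes carry blood cells into tissue: Itgb2 pairs with Itgal, Itgam, Itgax or Itgad to bind the Icam proteins and complement, and Itgb7 pairs with Itga4 or Itgae. Of the 8 chains, 7 had a lower mean in miR-19a/19b mimic hearts, and their median log2 difference was -0.18. The median was -0.39 without miR-19a/19b mimic replicate 3 and -0.06 without miR-19a/19b mimic replicate 1, so its size depended on single hearts. Relative to the control mean, the median chain stood at -0.55, -0.29 and 0.15 on the log2 scale in miR-19a/19b mimic replicates 1, 2 and 3, and replicate 3 was the highest of the 6 hearts for 5 of the 8 chains.

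Itgal (ENSMUSG00000030830, chr7:127296260-127335138, plus strand), the alpha chain of the integrin by which T cells, NK cells and other leukocytes bind Icam1 and Icam2, had normalized counts of 321, 242 and 277 in control mimic hearts and of 148, 162 and 221 in miR-19a/19b mimic hearts. All miR-19a/19b mimic hearts were below all control mimic hearts. The difference was -0.67 (log2, SE 0.18, limma adjusted p = 0.947), a mean 0.633 times that of control mimic hearts. Itgal was lower at an unadjusted p under 0.05 with each heart left out in turn, and without miR-19a/19b mimic replicate 3 its difference was -0.84 (limma adjusted p = 0.0217). Per kilobase, Itgal made up 10.8%, 9.94% and 10.1% of the summed alpha partners of Itgb2 in control mimic hearts and 8.5%, 6.9% and 6.98% in miR-19a/19b mimic hearts, and the groups did not overlap. A two-sided exact permutation test of this share gave p = 0.1, the smallest it can give with 3 hearts against 3 (adjusted p = 0.971 over 41 chain shares compared).

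The 11 markers of T and NK cells were, like Itgal, lower in the miR-19a/19b mimic group. They summed to 398, 505 and 309 normalized counts in control mimic hearts and to 251, 253 and 266 in the miR-19a/19b mimic group, without overlap. Among the control mimic hearts, these sums and Itgal were in different orders. Control mimic replicate 2 had the highest sum and the lowest Itgal. Within the miR-19a/19b mimic group, replicate 1 was lowest and replicate 3 highest both for the sum and for Itgal, with the sums close together. The median marker stood at -0.67, -0.58 and -0.72 (log2, against the control mean) in replicates 1, 2 and 3 of this group. These sums cover 11 genes, so single markers had few reads on average. All 11 had lower means in miR-19a/19b mimic hearts (49.2% of all genes tested did). Of them 4 were lower at an unadjusted p under 0.05 in limma (2.63% of all genes), and none was at 0 in every heart. Their part in the Itgal result was not tested.

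Itgb2 (ENSMUSG00000000290) had 3458, 3398 and 3493 normalized counts in control mimic hearts and 2531, 2768 and 4328 in miR-19a/19b mimic hearts. The control mimic hearts lay close together, and the miR-19a/19b mimic hearts fell on both sides of them. The difference was -0.15 (log2, SE 0.19), and -0.38 without replicate 3 (adjusted p = 0.0504). Itgam (ENSMUSG00000030786), the alpha chain of the complement receptor of monocytes, macrophages and neutrophils, had 1410.3, 1148 and 1371 normalized counts in control mimic and 839, 1207 and 1578 in miR-19a/19b mimic hearts. The groups overlapped, with miR-19a/19b mimic hearts both lowest and highest, and the difference was -0.16 (SE 0.21).

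Itgb7 (ENSMUSG00000001281), the beta chain of gut-homing lymphocytes and some myeloid cells, had 364.7, 379.6 and 399.9 normalized counts in control mimic hearts and 237, 268 and 412 in miR-19a/19b mimic hearts. Replicates 1 and 2 of the miR-19a/19b mimic group were below every control mimic heart and replicate 3 above. Its difference of -0.36 (log2, SE 0.19) became -0.60 without replicate 3 (adjusted p = 0.0292). The other 4 chains (Itgax, Itga4, Itgae, Itgad) had differences between -0.27 and 0.57, the smallest limma p being 0.283. Without replicate 3, Itgax was at -0.39 (adjusted p = 0.142) and Itga4, which binds Vcam1, at -0.40 (adjusted p = 0.188).

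Myeloid markers followed the same order of hearts as Itgb2, Itgam and Itgb7 within the miR-19a/19b mimic group. Markers of macrophages and monocytes (12 genes) summed to 83911, 98438 and 85347 in control mimic and to 69807, 79588 and 104881 in the miR-19a/19b mimic group, with 9 of 12 lower in mean. Markers of neutrophils (11 genes) summed to 2858, 2731 and 2544 and to 1571, 2422 and 3414, with 10 of 11 lower in mean. No marker of these lists was at 0 in all hearts. Replicate 1 of the miR-19a/19b mimic group was lowest and replicate 3 of that group highest in both sums. In control mimic hearts the orders differed. The macrophage and monocyte sum was highest in control mimic replicate 2, where Itgb2 and Itgam were lowest of that group. From control mimic replicate 1 to 3 the neutrophil sum fell while Itgb7 rose. The part of these cells in the results for the leukocyte integrins was not tested.

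**Figure D3:**
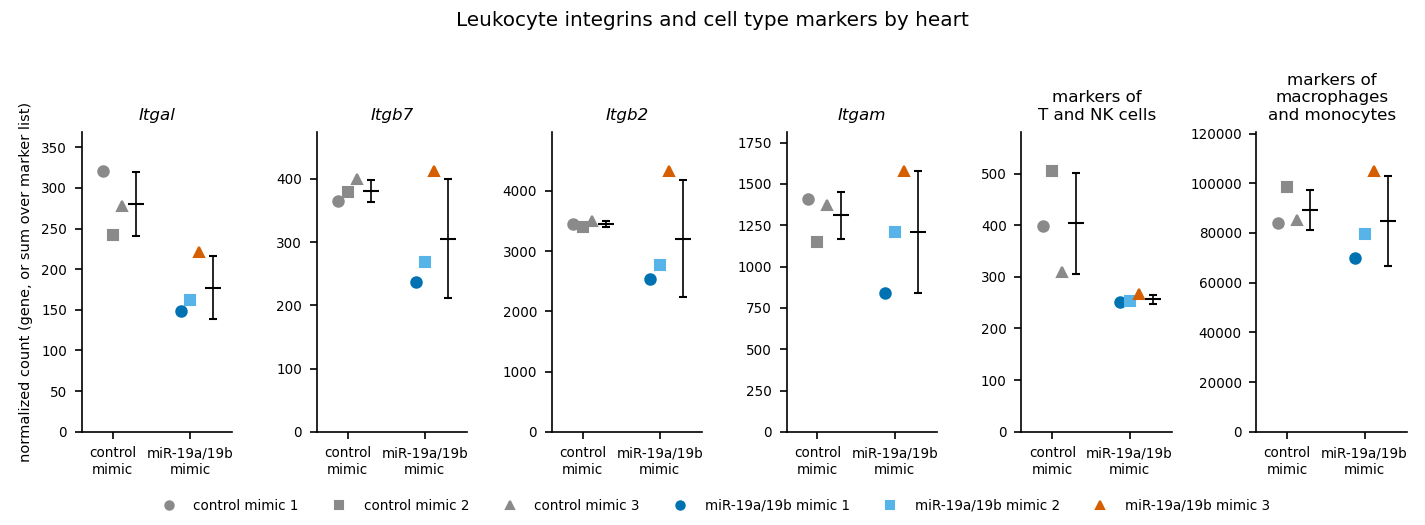
Normalized counts of Itgal, Itgb7, Itgb2 and Itgam, and summed normalized counts of the markers of T and NK cells and of macrophages and monocytes, in each heart, with mean and SD (n = 3) beside each group. Axes start at 0. The groups do not overlap for Itgal and for the T and NK markers, and miR-19a/19b mimic replicate 3 is the highest heart in the other panels.

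Platelet integrins, the chains of the fibrinogen receptor, did not separate the groups. Itgb3 (ENSMUSG00000020689), which also pairs with Itgav outside platelets, had 1246, 1026 and 960.4 normalized counts in control mimic and 967, 1097 and 1447 in miR-19a/19b mimic hearts. Itga2b (ENSMUSG00000034664) had 145, 136 and 159.8 in control mimic and 141, 119 and 170.3 in miR-19a/19b mimic hearts. Replicate 3 of the miR-19a/19b mimic group was highest for both genes and the groups overlapped. The differences were 0.11 (SE 0.16) and -0.05 (SE 0.17). Platelet and megakaryocyte markers (10 genes) summed to 2965, 3542 and 2459 in control mimic and to 2550, 3281 and 5430.4 in the miR-19a/19b mimic group, with the highest sum in replicate 3. The sum and the single markers pointed different ways: 7 of the 10 markers had a lower mean in miR-19a/19b mimic hearts, 1 of them at an unadjusted p under 0.05 in limma (2.63% of all genes were). The median log2 difference was -0.40, and the median marker of replicate 3 stood at -0.02 against the control mean. Their part in the values of the platelet integrins was not tested.

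Stromal integrins had small differences that mostly pointed the same way. Of the 16 chains, 14 had a lower mean in miR-19a/19b mimic hearts, the differences lay between -0.35 and 0.11, and the median was -0.20 (log2), against 0.0041 over all genes tested. The median was -0.19 without miR-19a/19b mimic replicate 3, and over all 6 ways of leaving out a heart it lay between -0.22 and -0.17. Groups were fully apart for 5 of the 16, each lower in miR-19a/19b mimic hearts, where 5.3% of all genes tested were. At an unadjusted p under 0.05 in limma there were 0, where 2.63% of all genes were lower and 1.39% higher. Relative to the control mean, the median chain stood at -0.13, -0.21 and -0.12 (log2) in miR-19a/19b mimic replicates 1, 2 and 3, so that each of these hearts was on the same side. The smooth muscle and pericyte markers had a similar median difference of -0.20 (log2), with 8 of 10 lower in mean. Of them 1 was lower at an unadjusted p under 0.05 in limma, although their sums overlapped between the groups. Single hearts did not match: the median smooth muscle and pericyte marker of replicate 3 stood lowest, at -0.40, after -0.33 (replicate 2) and -0.06 (replicate 1). The leukocyte markers were as close in median difference, at -0.19 with 10 of 10 lower in mean, but their median marker in replicate 3 stood at 0.17. Of the fibroblast markers 6 of 10 were lower in mean, with a median of -0.02, and of the endothelial markers 6 of 10, with a median of -0.01. The part of these cells in the result was not tested.

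The receptors for fibronectin and other RGD ligands were the most abundant of these. Itgb1 (ENSMUSG00000025809) had 24967, 25215 and 27452 normalized counts in control mimic and 23609.8, 22646 and 21586 in miR-19a/19b mimic hearts, without overlap. Its difference was -0.19 (log2, SE 0.15). Itga5 (ENSMUSG00000000555), which pairs with Itgb1 as the fibronectin receptor, had 10148, 9679 and 10857 and then 9740.2, 8845 and 9007 in the same order, so the groups overlapped by 1 heart, with a difference of -0.15 (SE 0.12). Itgb5 (ENSMUSG00000022817), a partner of Itgav for vitronectin, had 9665, 11175 and 9540.4 and then 9338, 8028 and 10109.5, with overlap and a difference of -0.15 (SE 0.14).

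Itgav (ENSMUSG00000027087), the alpha chain common to the vitronectin receptors and to those that free TGF-beta from its latent form, had 2307, 2606 and 2428 normalized counts in control mimic and 2059, 1846 and 2316 in miR-19a/19b mimic hearts. Replicate 3 of the miR-19a/19b mimic group was within the control range, and the other hearts of the group were below it. The difference was -0.24 (SE 0.11), and -0.33 without replicate 3 (adjusted p = 0.112). Itgb8 (ENSMUSG00000025321), a partner of Itgav in the release of TGF-beta, had 151.4, 155 and 189 and then 148, 129 and 151.3, below the control values in every heart, although the nearest hearts differed by less than 1 count. Its difference was -0.20 (SE 0.15). Itga8 (ENSMUSG00000026768), an RGD receptor for nephronectin on mesenchymal and smooth muscle cells, had 95.1, 122 and 124 and then 88.2, 93.8 and 83.0. The groups did not overlap, though the nearest hearts were 95.1 and 93.8, and the difference was -0.35 (SE 0.17).

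Itga9 (ENSMUSG00000039115), a receptor for tenascin C, osteopontin and Vcam1, had 3070.4, 2678 and 2869 normalized counts in control mimic and 2632, 2470.2 and 1762 in miR-19a/19b mimic hearts. The groups did not overlap, and replicate 3 of the miR-19a/19b mimic group was far below the rest. The difference was -0.35 (SE 0.16), and -0.17 without that heart (limma adjusted p = 0.47), so its size rested largely on replicate 3.

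Of the collagen receptors (Itga1, Itga2, Itga10, Itga11) only Itga1 was named by the rule, through its 8-mer. Itga1 (ENSMUSG00000042284) had 1285, 1279 and 1421 normalized counts in control mimic and 1298, 1186 and 1043 in miR-19a/19b mimic hearts. The groups overlapped, with a difference of -0.18 (log2, SE 0.11). Itga11, the collagen receptor of fibroblasts and myofibroblasts, is named after its values were seen: it had 747, 688 and 803 and then 595, 482 and 915, with replicate 3 the highest heart of all and the other miR-19a/19b mimic hearts the lowest. Its difference was -0.22 (SE 0.21), and -0.47 without replicate 3 (adjusted p = 0.0621). Fibroblast markers (10 genes) summed to 548550, 438695 and 700993 in the miR-19a/19b mimic hearts, in an order of hearts that was likewise highest in replicate 3.

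Among the laminin receptors, Itga3 (ENSMUSG00000001507) had 962, 786 and 778 normalized counts in control mimic and 704, 741 and 775 in miR-19a/19b mimic hearts. The groups did not overlap, though the nearest hearts were 778.2 and 774.5. The difference was -0.18 (SE 0.11). Itga6, Itga7 and Itgb4 had differences of -0.14, -0.20 and 0.09, the smallest p of these in limma being 0.254. For Itga7, chosen after its values were seen, normalized counts were 6834, 5329.5 and 6334 in control mimic and 6721, 5981 and 3785 in miR-19a/19b mimic hearts, and its difference was 0.05 without replicate 3, the heart with the lowest cardiomyocyte marker sum. The part of cardiomyocyte RNA in these values was not tested.

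**Figure D4:**
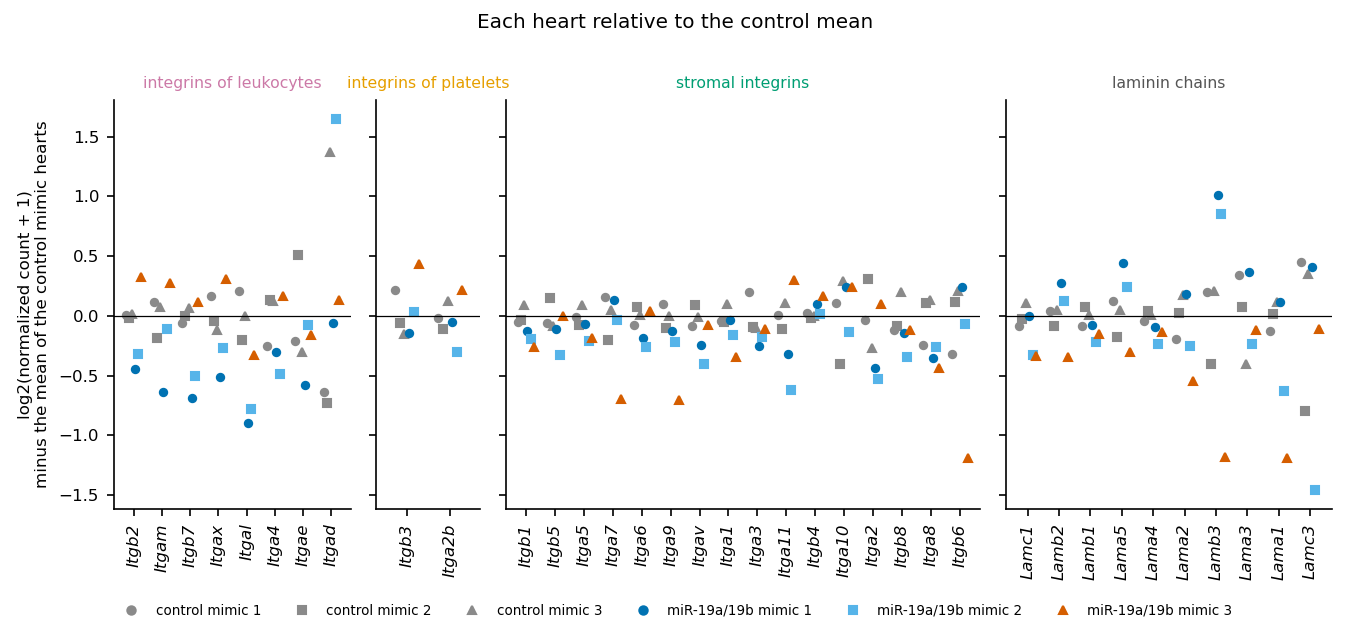
Each heart's log2(normalized count + 1) minus the mean of the control mimic hearts, for the integrin and laminin genes in 4 panels, with genes ordered by level. Points of miR-19a/19b mimic replicate 3 (orange triangles) lie above the other miR-19a/19b mimic hearts for most leukocyte and platelet integrins and at the bottom for most laminins, while the stromal panel shows the 3 hearts mostly just below 0.

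Laminin chains pointed in both directions. Of the 11 chains, 7 had a lower mean in miR-19a/19b mimic hearts, with a median log2 difference of -0.16 that became -0.11 without miR-19a/19b mimic replicate 3. Against the control mean, the median chain stood at 0.18, -0.24 and -0.34 (log2) in miR-19a/19b mimic replicates 1, 2 and 3, so that the hearts of this group lay on both sides of the control mean. Replicate 3 was the lowest of the 6 hearts for 7 of the 11 chains.

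The chains of widest use were the most abundant. Lamc1 (ENSMUSG00000026478), the gamma chain of most laminins, had 13550.2, 14102 and 15434 normalized counts in control mimic and 14289, 11391 and 11325 in miR-19a/19b mimic hearts. The groups overlapped through replicate 1, with a difference of -0.23 (log2, SE 0.15). Lamb1 (ENSMUSG00000002900) had 7172, 7993 and 7622 and then 7212, 6519 and 6826, with overlap and a difference of -0.15 (SE 0.11).

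Lamb2 (ENSMUSG00000052911), the beta chain of mature basement membranes of muscle and vessels, had 9132, 8361 and 9184 normalized counts in control mimic hearts and 10761, 9664 and 6998 in miR-19a/19b mimic hearts. The first of these groups lay inside the range of the second. Its difference was 0.02 (SE 0.17), so no direction can be given. Lama4 (ENSMUSG00000019846), the alpha chain of capillary basement membranes, had 4968, 5277 and 5163 and then 4804, 4355 and 4661, and it was the only laminin whose groups did not overlap. The difference was -0.16 (SE 0.10), and -0.17 without replicate 3. Lamc3 (ENSMUSG00000026840) rested on few reads, with 22.1, 8.78 and 20.6 and then 21.5, 5.15 and 14.7, wide overlap, and a difference of -0.39 (SE 0.54).

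The other 6 laminins had differences between -0.57 (Lama1) and 0.23 (Lamb3), the smallest limma p being 0.126. Of these, Lamb3 and Lama5 are described after their values were seen, since they passed a threshold without replicate 3. Lamb3 (ENSMUSG00000026639), a chain of the epithelial laminin that anchors hemidesmosomes, had 103, 67.3 and 104 normalized counts in control mimic hearts and 182, 163 and 38.9 in miR-19a/19b mimic hearts. Replicates 1 and 2 were above every control mimic heart and replicate 3 below all, which gave a difference of 0.23 (SE 0.52) with replicate 3 and of 0.93 without it (adjusted p = 0.0435). Lama5 (ENSMUSG00000015647), an alpha chain of vessel and epithelial basement membranes, had 5202, 4212 and 4939 and then 6485, 5647 and 3867. The same 2 hearts were above and replicate 3 below the control hearts, with a difference of 0.13 (SE 0.19), and of 0.34 without replicate 3 (adjusted p = 0.168). Cardiomyocyte marker sums were above all control mimic hearts in the same pair of hearts and below all in replicate 3, and their part was not tested.

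The makeup of the laminin chains was compared as shares of the summed normalized counts per kilobase within each heart. Lama5 made up 43.7%, 36.7% and 40.1% of the alpha chains in control mimic and 47.7%, 48.5% and 39.3% in miR-19a/19b mimic hearts. Lama4 made up 39.4%, 43.4% and 39.6% and then 33.3%, 35.3% and 44.7%, so Lama4 was below every control mimic heart in replicates 1 and 2 and above every one in replicate 3. Lama2 was between 14.6% and 19.1%, and Lama1 and Lama3 were together the small remainder. Of the beta chains, Lamb2 was 67.0%, 62.7% and 65.8% in control mimic and 70.1%, 69.97% and 62.4% in miR-19a/19b mimic hearts. Lamc1 held between 96.3% and 97.3% of the gamma chains in every heart. Of the 41 shares compared, including those of the integrins, 0 had an adjusted p under 0.05, which exact permutation over 3 against 3 hearts cannot reach, and the groups were fully apart for Itgal among the partners of Itgb2 and for Itgb4 among the integrin beta chains (0.215% to 0.231% and 0.263% to 0.265%).

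**Figure D5:**
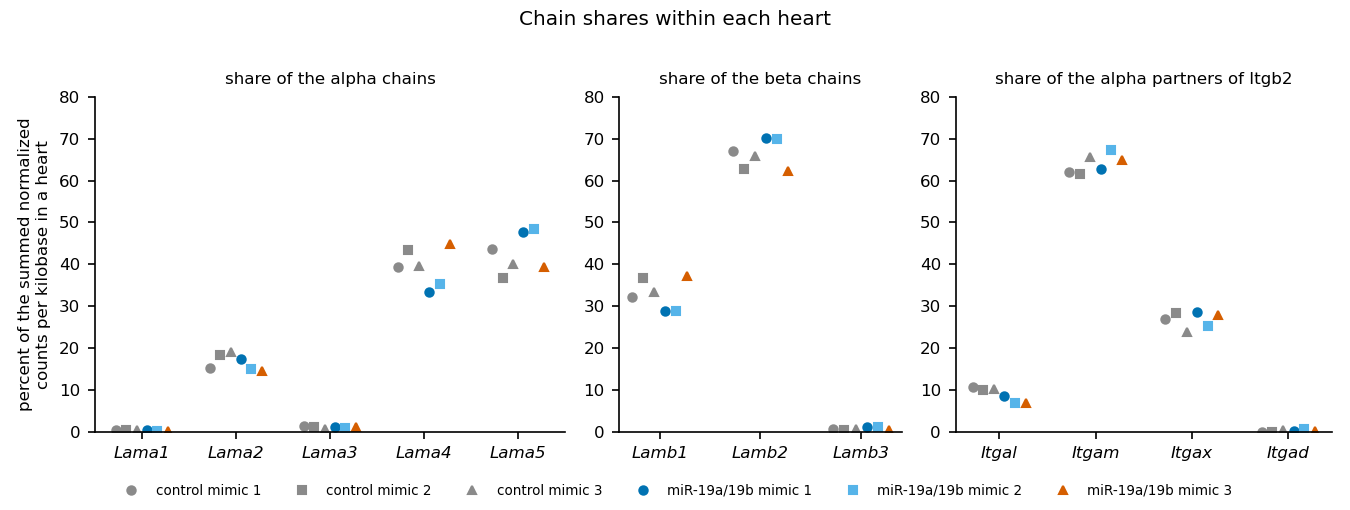
Share of each chain in the summed normalized counts per kilobase of its class, in percent, for laminin alpha chains, laminin beta chains and the alpha partners of Itgb2, with 1 point per heart. Axes start at 0. The Itgal share is 9.94% to 10.8% in control mimic and 6.9% to 8.5% in miR-19a/19b mimic hearts, and the Lama4 share of replicate 3 is above the control hearts while those of replicates 1 and 2 are below them.

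The proteins that act with these chains were counted from 3 lists. Of the 30 tested activators and adapters that link integrin tails to actin (talins, kindlins, vinculin, focal adhesion kinase and others), 21 had a lower mean in miR-19a/19b mimic hearts, with a median of -0.05 (log2), and 0 had an unadjusted p under 0.05 in limma. Without replicate 3, 9 were lower (6.12% of all genes) and 3 higher (8.41% of all genes) at an unadjusted p under 0.05. Of these, 2 passed at an adjusted p under 0.05 in limma, both named after their values were seen. Ptk2b, a kinase of the focal adhesion kinase family, was at -0.46 (limma adjusted p = 0.0334), and at -0.30 (SE 0.14) with all hearts, with overlap. Itgb1bp2, a muscle protein that binds the Itgb1 tail, was at 0.61 (limma adjusted p = 0.0125), and at 0.11 (SE 0.34) with all hearts, with overlap. Itgb1bp2 had 862, 890 and 965 normalized counts in control mimic and 1364, 1391 and 495 in miR-19a/19b mimic hearts. Replicate 3 was below every control mimic heart, as for the cardiomyocyte marker sums, whose part was not tested. Of the 16 tested ligands other than laminins and collagens (fibronectin, periostin, Icam and Vcam proteins and others), 11 had a lower mean, with a median of -0.10, and 0 had an unadjusted p under 0.05.

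Of the 16 tested laminin partners of the basement membrane and cell surface (nidogens, perlecan, dystroglycan, sarcoglycans and others), 9 had a lower mean, with a median of -0.02. At an unadjusted p under 0.05, 2 were lower, where 2.63% of all genes tested were. Agrn, which encodes agrin, a basement membrane proteoglycan that binds laminin and dystroglycan, had 4173, 4255 and 4377 normalized counts in control mimic and 3709.7, 3469 and 3314 in miR-19a/19b mimic hearts. Every miR-19a/19b mimic heart was below every control mimic heart, with a difference of -0.29 (log2, SE 0.10, limma adjusted p = 1) and of -0.25 without replicate 3. Ntn4, which encodes a netrin that binds laminin gamma chains and interrupts laminin networks, had 754, 770.0 and 890.3 and then 741, 633 and 613, also without overlap, with a difference of -0.28 (SE 0.12, limma adjusted p = 1) and of -0.23 without replicate 3, where it no longer had an unadjusted p under 0.05. With a heart left out in turn, Agrn kept an unadjusted p under 0.05 in 4 of 6 fits and Ntn4 in 1 of 6. Without replicate 3, 1 partner was lower (Agrn, 6.12% of all genes were) and 5 were higher (8.41% of all genes) at an unadjusted p under 0.05. The sarcoglycan Sgca, named after its values were seen, is part of the muscle complex that binds laminin through dystroglycan. It was among those that passed the adjusted threshold without replicate 3, at 0.86 (limma adjusted p = 0.0216). With all hearts its difference was 0.35 (SE 0.38), with overlap. Sgca had 854, 657 and 1001.5 normalized counts in control mimic and 1568, 1442 and 513 in miR-19a/19b mimic hearts. Replicate 3 was below every control mimic heart and the others of its group above, as for the cardiomyocyte marker sums, whose part was not tested.

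The 4 members with an 8-mer to the miR-19 seed all had lower means in miR-19a/19b mimic hearts, with log2 differences of -0.18 for Itga1, -0.24 for Itgav, -0.20 for Itgb8 and -0.39 for Lamc3, a direction shared by 49.2% of all genes tested, and 0 of the 4 had an unadjusted p under 0.05 in limma. Their median was -0.22. Over all 878 tested genes with an 8-mer the median was -0.03 and 58.4% were lower, against a median of 0.01 and 48.1% over the 12898 genes with a 3′ UTR and no match. The groups overlapped for Itga1, Itgav and Lamc3. Itgal, the member with the lowest limma p, held no match in its annotated 3′ UTR of 1528 bases.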

How the data were processed

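RNA of 6 ventricles was sequenced. Per the methods and the submitters' processing notes, the authors removed adapter and low-quality reads, aligned the rest with STAR 2.5.1b and counted reads per gene with HTSeq 0.6.0. The notes also name DESeq2 1.10.1 and the build mm9, while the methods name edgeR. The signal the authors deposited is a count per gene normalized by 1 size factor per library (0.905 to 1.16). Multiplied by that factor, 100% of values came out as whole reads (tolerance 0.01) in every heart, which gave the reads back. Of the 26012 gene identifiers, 25884 were found in GENCODE M21, of which 99.9% had the chromosome and 82.7% also the start and end of that annotation. Coordinates are therefore those of the table, on GRCm38. The deposited fold changes, p-values and table of dysregulated genes are the authors' own comparison and were not used. No column of per-heart values was left unmapped (0).

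Groups came from the sample titles. The 21126 genes with a mean of at least 1 were tested with limma 3.58.1 (trended prior, R 4.3.3) on log2(normalized count + 1), a scale that understates changes of low genes, with Benjamini-Hochberg adjustment over all of them. edgeR 4.0.16 and DESeq2 1.42.0 on the recovered reads, limma-voom, TMM scaling, a pseudocount of 0.1, no filter, at least 10 in every heart, a replicate block and each heart left out were alternatives. The procedure was tested on simulated data. Shares were tested by exact permutation.

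The members and lists were chosen with earlier results of these data known. Values per heart are given for members with an unadjusted p under 0.05, without overlap of the groups, among the 3 highest per kilobase in each group of genes, or with an 8-mer (20 members), and exceptions are named. Of the lists, Fga was not matched by name, and some items are not reported here on their own and are left out of the plots, though counts and medians include them. That hearts are separate animals is not stated in the labels, and p-values measure the spread between these samples.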

Additional observations from a re-analysis of the deposited data

How the results depend on the processing

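At an adjusted p under 0.05, the calls over all genes in the lower and in the higher direction, 0 and 0 in limma, were 28 and 1 in DESeq2's Wald test, and with each heart left out they lay between 0 and 154 and between 0 and 361, the highest without miR-19a/19b mimic replicate 3. Integrin and laminin genes lower at an unadjusted p under 0.05, 1 in limma, numbered 2 in limma-voom, 2 with no filter and 2 with TMM scaling (Itga9 beside Itgal each time), and between 1 and 9 with a heart left out: 2 without control mimic replicate 1 (Itga8 added), 4 without miR-19a/19b mimic replicate 1 (Itga9, Lama1 and Lama2 added) and 9 without miR-19a/19b mimic replicate 3. Those higher numbered between 0 and 2. The medians of the leukocyte and stromal integrins and of the laminins stayed below 0 under all 14 alternatives. With the replicate number as a block, 1 gene was lower and 0 higher, the medians were -0.18, -0.20 and -0.16, and the block changed no call. Deviations of same-numbered hearts from their group means correlated at 0.056, -0.335 and -0.449 across 11609 genes, so the numbers were not taken to pair the hearts.

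Direction turned with a heart left out for some small differences and for Lamc3, whose difference was -0.39 (SE 0.54). Over the 6 fits that left out a heart, differences lay between -0.111 and 0.20 for Lamb2 (below 0 without control mimic replicate 2 and without miR-19a/19b mimic replicates 1 or 2), between -0.18 and 0.081 for Itga2b (above 0 without control mimic replicate 3 and without miR-19a/19b mimic replicate 2), and between -0.79 and 0.15 for Lamc3 (above 0 without the latter). They lay between -0.37 and 0.081 for Itgam and between -0.38 and 0.0049 for Itgb2 (above 0 without miR-19a/19b mimic replicate 1), and between -0.056 and 0.23 for Itgb3 (below 0 without replicate 3). The cause was not tested. Itgal and Itgb7 passed the adjusted threshold without replicate 3. The other 12 genes named by the rule kept their direction and their side of the adjusted threshold under all alternatives. Of the genes described after their values were seen, which were followed over the fits without a heart, Lamb3 lay between -0.16 and 0.93 (past the adjusted threshold without replicate 3), Lama5 between -0.03 and 0.34, Itga7 between -0.37 and 0.05 and Itgax between -0.39 and 0.02. TMM scaling moved the median of all genes by less than 0.1 (log2), and a minimum of 10 in every heart kept 35 of the 37 genes. Genes such as Itgad, Itgae, Lama1 and Lamc3 are limited by few reads.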
